A study of Mus musculus with 32 samples.

Results

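The 45 genes described here are interferon-stimulated genes, chosen by symbol as known targets of interferon. Each symbol matched 1 of the 47643 Ensembl gene IDs in the count table. RNA came from epididymal white adipose tissue (eWAT) and liver of male mice that entered the study at 10 weeks of age and were treated for 7 days. Mice drank water with corticosterone (cort), the main glucocorticoid of rodents, or with the ethanol vehicle (veh), and ate a normal-protein diet (NPD, 20% of kcal from whey protein) or an isocaloric high-protein diet (HPD, 60% of kcal from whey protein, with less corn starch). All mice were labelled C57BL/6 (C57BL/6J in the study's methods) and had eaten the NPD before the start, and the vehicle groups drank the same ethanol solution in which cort was given. Each of the 2 tissues had 4 libraries of every combination (Cort HPD, Cort NPD, Veh HPD and Veh NPD), 32 in all. The labels do not say whether an eWAT library and a liver library with the same number came from 1 mouse. The labels name no cohort, although the study used several cohorts of mice, so group and cohort could not be separated here.

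Interferons are secreted signals that cells release when they sense foreign or misplaced nucleic acid. Type I interferons act through a receptor coupled to Jak kinases, which activate transcription factors. Stat2 and Irf9 are parts of the complex ISGF3 that binds the interferon-stimulated response element (ISRE) in front of its target genes. Interferon-gamma signals to a different element (GAS) and induces guanylate-binding proteins and immunity-related GTPases most strongly. The targets limit viruses and intracellular microbes, and glucocorticoids acting through the glucocorticoid receptor are known to dampen many of them.

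Promoters of the genes were searched for the letters of the ISRE, of the GAS and of a glucocorticoid receptor site. RefSeq promoters on GRCm38.p6, from 250 bases before to 50 bases after the start, were given for 33 of the 45 genes. The letters GAAA, any 2 bases and GAAA again, searched on both strands, were found in 22 of these 33 genes (66.7%) and in 3.99% of all 27025 genes with a promoter. Matches that overlapped each other were counted separately, and a match could share bases with a GAS match. The GAS letters, TTC and GAA with any 3 bases between, which read the same on both strands, were in 8 of the 33 (24.2%) and in 9.55% of all genes. The letters of a palindromic glucocorticoid receptor site (GNACA and TGTNC with any 3 bases between) were in 0 of the 33 and in 0.537% of all genes. A match is a description of letters and not a binding site, and no match says only that these letters are not in this window. The promoters of 6 genes are shown 5′ to 3′ on the strand of the gene, with every ISRE match in capitals, because their genes carry the results below. Isg15 (chr4:156200769-156201068, minus strand) has 3 overlapping matches of which the first starts 78 bases upstream of the start. Ifit3 (chr19:34583279-34583578, plus strand) has 2 separate matches, and Oas1c (chr5:120812465-120812764, minus strand) and Apol9b (chr15:77728822-77729121, plus strand) have 2 overlapping ones each. Gbp7 (chr3:142530086-142530385, plus strand) has 1, beside 2 GAS matches. Tnfsf10 (chr3:27316827-27317126, plus strand) has none and is shown for contrast.
Isg15: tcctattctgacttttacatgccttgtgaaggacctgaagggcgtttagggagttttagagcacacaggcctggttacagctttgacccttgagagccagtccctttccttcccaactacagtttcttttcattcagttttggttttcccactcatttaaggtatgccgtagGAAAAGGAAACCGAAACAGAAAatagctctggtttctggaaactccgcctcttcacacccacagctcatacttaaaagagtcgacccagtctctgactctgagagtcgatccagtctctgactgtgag
Ifit3: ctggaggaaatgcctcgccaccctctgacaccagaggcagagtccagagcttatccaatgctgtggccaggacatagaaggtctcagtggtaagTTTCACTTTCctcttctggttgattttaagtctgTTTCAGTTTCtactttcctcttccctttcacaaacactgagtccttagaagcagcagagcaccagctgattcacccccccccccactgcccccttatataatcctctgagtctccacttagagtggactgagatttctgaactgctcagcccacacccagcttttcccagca
Oas1c: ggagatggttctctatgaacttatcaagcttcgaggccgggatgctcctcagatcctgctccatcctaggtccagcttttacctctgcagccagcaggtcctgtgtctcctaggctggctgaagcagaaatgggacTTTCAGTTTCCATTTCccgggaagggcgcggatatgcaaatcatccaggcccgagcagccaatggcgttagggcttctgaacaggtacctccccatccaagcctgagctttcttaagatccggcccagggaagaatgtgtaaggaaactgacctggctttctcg
Apol9b: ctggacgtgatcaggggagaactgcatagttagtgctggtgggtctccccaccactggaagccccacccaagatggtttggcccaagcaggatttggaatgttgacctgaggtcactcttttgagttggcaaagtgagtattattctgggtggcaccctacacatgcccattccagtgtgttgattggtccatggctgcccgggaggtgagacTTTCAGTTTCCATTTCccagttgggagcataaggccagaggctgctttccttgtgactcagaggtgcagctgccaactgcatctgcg
Gbp7: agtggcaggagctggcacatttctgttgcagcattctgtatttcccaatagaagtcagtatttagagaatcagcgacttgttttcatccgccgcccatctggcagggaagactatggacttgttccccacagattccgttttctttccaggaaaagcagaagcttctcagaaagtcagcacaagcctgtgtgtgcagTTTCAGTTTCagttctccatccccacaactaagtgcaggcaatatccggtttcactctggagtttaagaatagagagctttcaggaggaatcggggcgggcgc
Tnfsf10: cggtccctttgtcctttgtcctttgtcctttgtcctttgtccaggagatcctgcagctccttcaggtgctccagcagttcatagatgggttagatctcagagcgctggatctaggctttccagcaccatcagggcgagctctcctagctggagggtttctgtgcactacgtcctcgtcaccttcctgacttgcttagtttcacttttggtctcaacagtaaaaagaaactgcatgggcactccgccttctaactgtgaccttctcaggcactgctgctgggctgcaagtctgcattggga

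Counts per library ran from 9794683 to 18057936 in eWAT and from 8933307 to 17447524 in liver. Levels are given as counts per 1000000 counts of a library (CPM), scaled with TMM factors within a tissue. The libraries were made from the 3′ ends of transcripts, so CPM was not divided by transcript length. The tissue labels held: the summed level of 7 adipocyte markers was 15100 to 22800 CPM in eWAT and at most 39.8 CPM in liver, and 8 hepatocyte markers summed to at most 4000 CPM in eWAT, to 38500 CPM in liver Veh HPD replicate 4 and to at least 67600 CPM in the other liver libraries. That library, liver Veh HPD replicate 4, stood apart from the other liver libraries, with a mean Pearson correlation to them across 11262 genes of 0.894 where the others had 0.945 to 0.962, and it entered no liver comparison. eWAT Cort HPD replicate 4 held 21400 CPM of 10 epididymis and testis markers, and eWAT Veh NPD replicate 3 held 24.3 CPM of 6 B cell markers. Several members cannot be told from near-identical copies or from a gene that overlaps them. These are Ifit3 and Ifit3b, Apol9a and Apol9b, the Oas1 genes, Parp9 and Dtx3l, Igtp and Irgm2, Rtp4 and Masp1, Irf9 and Rnf31, Irf7 and Phrf1, Irf1 and Gm17334, Usp18 and Gm44148, Gbp7 and the pseudogene Gm43802, Oas2 and Gm43068, the members that overlap a small RNA gene (Gbp2, Trim30a), and the members with an antisense gene (Oas1c, Oasl1, Ifi35, Dhx58, Parp9), since it is not stated whether reads were counted by strand.

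The interferon-stimulated genes were ordered differently in the tissues. In liver, with Veh HPD replicate 4 left out of the means, the highest group mean was that of Cort HPD for 40 of the 45 genes and the lowest that of Cort NPD for 39. The left-out library was above every Cort HPD liver for 7 members. In eWAT the highest mean was that of Veh HPD for 37 genes and the lowest that of Cort NPD for 36. Cort on the NPD was thus the low point for most members in both tissues, and the HPD groups held the high points. In the figures and in the text, each library is also summarised by the median over 44 genes of its log2 ratio to the Veh NPD mean of the same tissue, on the log2(CPM + 0.5) scale.

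**Figure D1:**
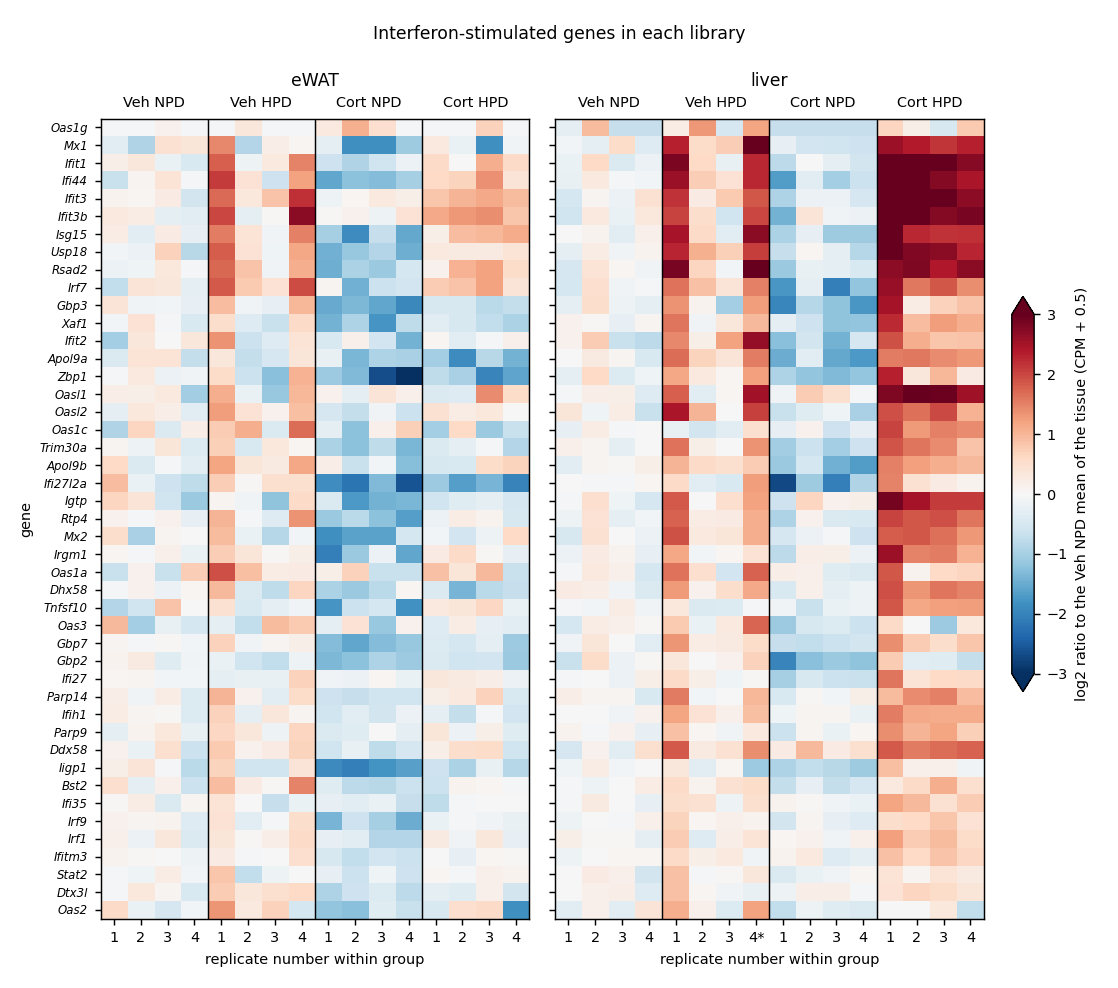
Log2 ratio of each of the 45 interferon-stimulated genes (rows, ordered by the liver diet difference under cort) to the Veh NPD mean of its tissue, on the log2(CPM + 0.5) scale, in every library (columns, by replicate number). The asterisk marks liver Veh HPD replicate 4, which entered no comparison. Red stands for a higher level and blue for a lower one, and liver Cort HPD is the group that is red in nearly every row.

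The question addressed first was whether the interferon-stimulated genes of mice given cort differed between the diets. More protein and less starch cannot be told apart, since the diets differed in both. In mice on cort, 39 of the 44 genes tested were higher on the HPD than on the NPD and 0 were lower (edgeR quasi-likelihood test, Benjamini-Hochberg adjusted p under 0.05), where 5.88% of all 12391 genes passed in either direction and 3.08% were higher. The median log2 fold change was 2.28 over the 44 members, also with Oas1g at its bound of 3 counts over a group at 0, and -0.01 over all genes. Oas1g aside, the lowest value was 0.45 (Dtx3l) and the highest 5.05 (Mx1), and all 44 members were above 0. In 42 members every Cort HPD library was above every Cort NPD library, where 6.61% of all genes had this. The members tested that did not pass were Oas1a, Oas1g, Oas3, Stat2 and Dtx3l, and Oas2 was too low in liver to be tested. Fewer cells of a type that expresses a gene and less RNA of it per cell cannot be told apart in bulk RNA, here or in any comparison that follows.

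The IFIT proteins, which bind foreign RNA ends and block their translation, rose in all 4 of their genes, with a median log2 fold change of 3.91. Ifit3 was at 9.85, 16.8, 17.0 and 13.3 CPM in Cort NPD livers and at 453, 195, 164 and 126 CPM in Cort HPD livers. The lowest Cort HPD library was far above the highest Cort NPD library, a difference of 4.04 ± 0.53 on the log2 scale (± SE here and below; edgeR, adjusted p = 0.0011). Ifit1 was at 24.8, 42.5, 35.8 and 29.2 CPM and at 1570, 414, 377 and 289 CPM, a log2 fold change of 4.32 ± 0.77 (adjusted p = 0.0085). One Cort HPD library, replicate 1, was well above the other 3 for both genes, and those 3 were still above every Cort NPD library. Ifit2, at a mean of 0.450 CPM in Cort NPD and 3.62 CPM in Cort HPD, rose by a log2 value of 2.96.

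The ubiquitin-like modifier Isg15 and Usp18, the protease that removes it and restrains the type I receptor, rose together. Isg15 was at 14.9, 24.4, 13.6 and 13.6 CPM in Cort NPD and at 414, 142, 133 and 135 CPM in Cort HPD livers (log2 fold change 3.63 ± 0.62, adjusted p = 0.0062). Usp18 was at 5.93, 10.4, 8.02 and 5.29 CPM and at 115, 71.1, 67.3 and 50.3 CPM (3.36 ± 0.36, adjusted p = 0.00014). Neither gene had overlapping groups.

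**Figure D2:**
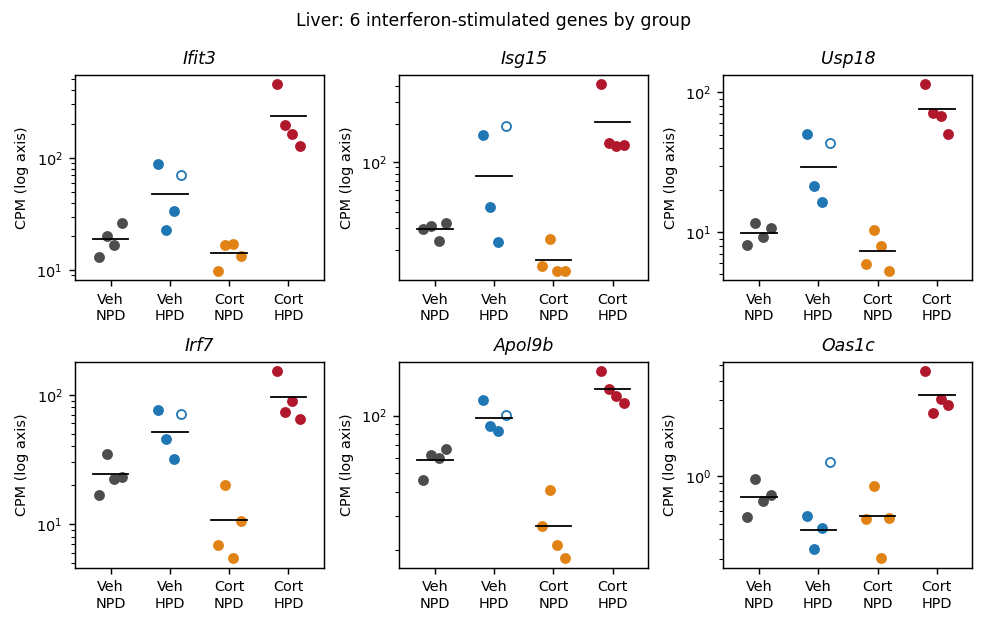
CPM of 6 interferon-stimulated genes in each liver library (points, log axis) by group, with the group mean as a line. The open point is liver Veh HPD replicate 4, which is not in the mean, and in all 6 panels the 4 Cort HPD libraries lie above the 4 Cort NPD libraries.

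Of the 4 transcription factors, 3 rose. Irf7, which drives the later interferon genes, was at 6.93, 20.0, 5.45 and 10.5 CPM in Cort NPD and at 152, 74.1, 89.7 and 65.0 CPM in Cort HPD livers (log2 fold change 3.16 ± 0.45, adjusted p = 0.0016). Irf9, the DNA-binding part of ISGF3, was at 33.2, 51.9, 41.1 and 37.3 CPM and at 70.7, 73.5, 87.2 and 66.0 CPM (0.86 ± 0.16, adjusted p = 0.0027). Irf1, an early target of interferon-gamma, went from a mean of 32.5 ± 2.62 CPM (SD, n = 4) to 58.3 ± 11.9 CPM (n = 4; 0.84 ± 0.20, adjusted p = 0.013 from edgeR's test), and was not called with scaling to library totals (0.65, adjusted p = 0.059). Each of the 3 was above every Cort NPD library in every Cort HPD library. Stat2, at 9.93 to 14.2 CPM and 14.4 to 18.2 CPM, did not pass.

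Genes of families that act on viral RNA or on membranes moved in the same direction. Mx1, a gene of the Mx GTPase family, had 3, 1, 1 and 1 counts in the Cort NPD libraries. It had 55, 69, 44 and 52 counts in the Cort HPD libraries. Its log2 fold change (5.05 ± 0.61, edgeR adjusted p = 3.7e-05) thus rested on 6 counts in the low group. Rsad2, the enzyme viperin that makes a chain-terminating nucleotide, was at 12.1, 22.9, 22.0 and 19.4 CPM and at 175, 191, 145 and 179 CPM (3.18 ± 0.55, adjusted p = 0.0064). No Cort HPD library stood out for this gene. Some enzymes of the OAS family make the messenger that activates RNase L. Of the 6 genes of this family tested, Oas1c, Oasl1 and Oasl2 rose. Oas1c was at 0.539, 0.863, 0.303 and 0.547 CPM and at 4.58, 2.50, 3.06 and 2.82 CPM (2.51 ± 0.38, adjusted p = 0.00047), with no overlap. Oas1g had 0 counts in every Cort NPD liver and 9, 7, 1 and 12 counts in the Cort HPD livers, and no fold is given for it. Bst2 (tetherin), which holds budding virus at the membrane, rose by 1.19 ± 0.17 and Ifitm3, which blocks fusion of virus with the cell, by 0.78 ± 0.16 on the log2 scale.

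The GTPases that interferon-gamma induces and the sensors of nucleic acid all rose. All 6 guanylate-binding proteins and immunity-related GTPases passed, with a median log2 fold change of 1.78. Gbp7 was at 8.77, 8.46, 9.08 and 9.60 CPM in Cort NPD and at 38.4, 24.9, 21.1 and 26.1 CPM in Cort HPD livers (1.62 ± 0.24, adjusted p = 0.00035), and Iigp1 at 382, 429, 403 and 345 CPM and at 1340, 796, 807 and 672 CPM (1.21 ± 0.19, adjusted p = 0.00065). Gbp2 was at 7.46 CPM in Cort HPD replicate 1 against 2.38 to 3.20 CPM in the other 3, and its call was lost without that library (log2 fold change 1.11, adjusted p = 0.056). All 4 sensors passed, with a median of 1.60. Dhx58, which modulates the RNA sensors, went from 4.57 ± 0.959 CPM to 16.9 ± 3.30 CPM (SD, n = 4 each; edgeR adjusted p = 9.9e-05), and Ifih1, the sensor of long double-stranded RNA, from 12.7 ± 1.37 to 31.4 ± 4.98 CPM (n = 4 each; edgeR adjusted p = 0.00031).

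The gene with the smallest adjusted p among the members was Apol9b, an apolipoprotein L gene. It was at 26.8, 41.0, 21.3 and 18.1 CPM in Cort NPD and at 170, 138, 126 and 116 CPM in Cort HPD livers (2.36 ± 0.22, adjusted p = 2.9e-06). All 11 members grouped as other effectors passed, and they ran from 0.93 (Ifi35) to 4.07 (Ifi44). Tnfsf10, the death ligand TRAIL, was at 2.54, 1.55, 2.35 and 2.43 CPM and at 11.4, 6.80, 7.12 and 7.20 CPM (1.86 ± 0.26, adjusted p = 0.00029). The 22 members with an ISRE match in the promoter window, Isg15 and Ifit3 among them, had a median log2 fold change of 2.33, and the 11 with none, Tnfsf10 among them, had 2.58, with 18 and 10 called. The members with and without these letters thus overlapped in the size of their rise.

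**Figure D3:**
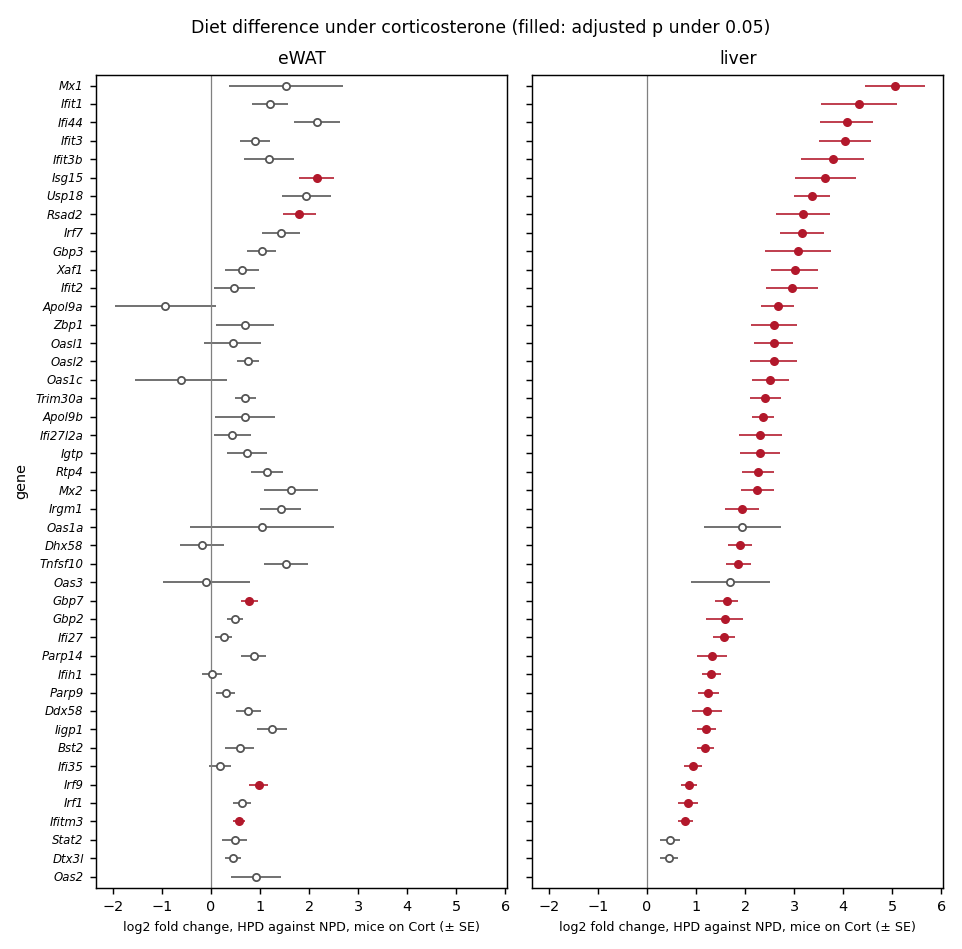
Log2 fold change (± SE) of each interferon-stimulated gene for HPD against NPD in mice on cort, in eWAT (left) and liver (right), in the same order. Filled red points passed an adjusted p of 0.05: 5 genes in eWAT and 39 in liver. Oas1g, with a group at 0, is not drawn.

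The same diet comparison in veh-treated livers gave 0 called members (percent called over all genes 0.169%), although 42 of 44 were above 0. An unadjusted p under 0.05 was found for 23 members and for 1165 of all 12391 genes. DESeq2 called 3 members among 113 genes in all, and limma voom 0 among 14. Without Veh HPD replicate 3, edgeR called 3 members. The median log2 fold change was 0.76. The libraries of the group were unequal. The median over the members was 1.34 in Veh HPD replicate 1, 0.18 in replicate 2 and 0.10 in replicate 3, and it was 1.17 in replicate 4, which was left out. Replicate 1 was the highest of its 3 libraries for 43 of the 44 members (97.7%, against 34.4% of all genes). Isg15, for example, was at 163, 43.6 and 23.0 CPM in the 3 Veh HPD livers and at 192 CPM in the library left out, and at 29.5, 31.2, 23.4 and 32.6 CPM in Veh NPD livers. For this gene replicate 3 was just below the Veh NPD livers and replicate 2 above them, while replicate 1 and the left-out library were well above all of these. The left-out library was above every Veh NPD liver for 39 of the 45 members.

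**Figure D4:**
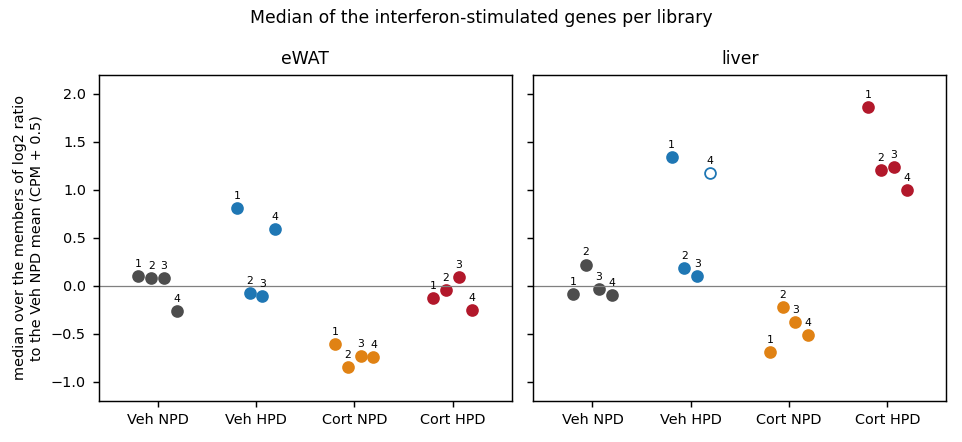
Median over 44 interferon-stimulated genes of the log2 ratio to the Veh NPD mean of the tissue (log2(CPM + 0.5) scale), 1 point per library with its replicate number, by group. The open point is liver Veh HPD replicate 4. Liver Cort HPD lies at 1.0 to 1.86 and liver Cort NPD at -0.69 to -0.22, while Veh HPD is spread in both tissues.

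For the effect of cort in liver, the called members were lower on the NPD and higher on the HPD. On the NPD, 7 of 44 members were lower with cort and 0 were higher (percent called 12.6% over all genes, 5.79% in the lower direction), and the median log2 fold change was -0.42. The 7 were Gbp2, Iigp1, Ifi27l2a, Apol9a, Apol9b, Bst2 and Ifi27. Apol9b was at 46.3, 62.2, 60.3 and 67.2 CPM in Veh NPD livers, above all 4 Cort NPD values given before (-1.14 ± 0.21, adjusted p = 0.001). Iigp1, the GTPase that attacks the vacuoles of intracellular parasites, was at 657, 839, 676 and 713 CPM, also with no overlap (-0.89 ± 0.19, adjusted p = 0.0034). Gbp2 went from 4.19 ± 1.64 CPM to 1.34 ± 0.437 CPM (SD, n = 4 each; edgeR adjusted p = 0.0052). No IFIT, OAS or Mx gene and neither Isg15 nor Usp18 passed: Ifit3, at 13.2, 20.2, 16.8 and 26.3 CPM in Veh NPD, overlapped Cort NPD. With all 16 liver libraries in the fit 4 members were called. The count was 3 without Cort NPD replicate 3 and 4 without Veh NPD replicate 1 or 4 or Cort NPD replicate 1 or 4.

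On the HPD, 9 members were higher with cort and 0 were lower (percent called 9.89%, 4.75% in the higher direction), with a median of 0.67. Oas1c was at 0.558, 0.346 and 0.473 CPM in the Veh HPD livers, below all Cort HPD values (2.76 ± 0.43, adjusted p = 0.00025), and at 1.23 CPM in the library left out. Tnfsf10 was at 3.57, 1.90 and 1.96 CPM (1.69 ± 0.29, adjusted p = 0.00056) and at 2.66 CPM in the library left out. Both genes kept apart from Cort HPD with the left-out library included. Oasl1 was at 27.2, 5.79 and 7.84 CPM in Veh HPD and at 54.9, 65.0, 60.6 and 46.3 CPM in Cort HPD (2.04 ± 0.43, adjusted p = 0.0088). The library left out was at 45.4 CPM, just below the lowest Cort HPD liver, and with all liver libraries Oasl1 was not called (edgeR, 1.41, adjusted p = 0.083). Ifit3 was at 87.5, 22.7 and 33.3 CPM in Veh HPD (2.29 ± 0.54, adjusted p = 0.020) and at 70.5 CPM in the library left out, and was not called without Veh HPD replicate 2 or 3 (edgeR, adjusted p = 0.061 and 0.080). The other 5 called were Ifit3b, Usp18, Dhx58, Parp9 and Irgm1. Their number depended on single libraries: with Veh HPD replicate 1 left out 22 members were called, with replicate 2 or 3 of that group left out 3, and with replicate 1 or 2 of Cort HPD left out 4 and 5.

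The test of whether the diet changed the cort effect in liver called 3 members (percent called 0.113%): Oas1c (3.15 ± 0.61, adjusted p = 0.044), Apol9b (1.65 ± 0.31, adjusted p = 0.044) and Tnfsf10 (1.99 ± 0.40, adjusted p = 0.050, under the threshold before rounding). The interaction was above 0 for all 44 members, with a median log2 value of 1.39. An unadjusted p under 0.05 was found for 32 members and for 1496 of all 12391 genes. Of the 15 fits with 1 library left out, 13 or 14 no longer called each of the 3. With all 16 liver libraries 0 members were called, and without Veh HPD replicate 1, 12 were. The count was 0 when any library other than Veh HPD replicate 1 and Cort NPD replicate 2 was left out.

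In eWAT, the called members were lower with cort on either diet, and higher on the HPD in mice given cort. On the NPD, 13 of 44 members were lower with cort and 0 were higher (percent called 7.98%, 3.93% in the lower direction). The median log2 fold change was -0.70, against -0.02 over all genes, and 39 members were below 0. Every Cort NPD library was below every Veh NPD library for 17 members, where 7.39% of all genes had this. Of the 6 guanylate-binding proteins and immunity-related GTPases 4 fell (median -1.28), while 0 of 4 IFIT genes (median -0.20) and 0 of 6 OAS genes (median -0.08) passed. The 2 Mx genes had a median of -1.78 with 0 called. Isg15 and Usp18 had a median of -1.43 with 1 called, and the 11 other effectors had -1.2 with 4 called. The medians of the remaining families of members were -0.64 to -0.56.

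Gbp7 had the smallest p. It was at 64.6, 58.8, 62.0 and 57.7 CPM in Veh NPD and at 24.5, 20.4, 24.3 and 27.2 CPM in Cort NPD eWAT (-1.33 ± 0.17, adjusted p = 6.1e-06). Gbp3 was at 16.7, 11.7, 11.9 and 10.6 CPM and at 4.14, 4.72, 4.02 and 2.94 CPM (-1.68 ± 0.29, adjusted p = 0.00033). These libraries were tight within groups and far apart between them, and Gbp2 and Iigp1 fell by 1.16 and 1.87 on the log2 scale. Irf9 was at 38.5, 37.7, 38.4 and 27.2 CPM in Veh NPD and at 13.2, 22.8, 17.5 and 12.3 CPM in Cort NPD (-1.11 ± 0.20, adjusted p = 0.00056), and was the only 1 of the 4 transcription factors to pass. Ifi27l2a, a mitochondrial interferon-induced protein, was at 2130, 976, 726 and 667 CPM and at 308, 246, 449 and 185 CPM (-1.92 ± 0.39, adjusted p = 0.0083). Ifitm3 and Trim30a, an E3 ligase, fell by 0.61 and 1.08. Isg15, at 14.5, 9.83, 14.7 and 10.3 CPM and at 5.91, 2.98, 7.41 and 3.92 CPM, also passed (-1.28 ± 0.35, adjusted p = 0.027), but 5 of the 16 fits with 1 library of any eWAT group left out no longer called it. The other genes that fell were Dtx3l, Xaf1, Zbp1 and Rtp4.

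On the HPD, 4 members were lower with cort and 0 were higher (percent called 6.09%, 2.63% in the lower direction): Gbp7 (-0.80 ± 0.17, adjusted p = 0.0029), Dtx3l (-0.79 ± 0.17, adjusted p = 0.0044), Gbp3 (-1.16 ± 0.28, adjusted p = 0.010) and Ifi27l2a (-1.94 ± 0.39, adjusted p = 0.010). Gbp7 was at 97.9, 56.7, 64.6 and 68.6 CPM in Veh HPD and at 45.7, 42.0, 49.3 and 28.3 CPM in Cort HPD eWAT. Ifi27l2a was at 1890, 1150, 1560 and 1560 CPM and at 532, 359, 426 and 282 CPM. Neither gene's groups overlapped. The median over 44 members was -0.49, and 41 were below 0. Without Veh HPD replicate 2 or 3, 7 members were called. The test of whether the diet changed the cort effect in eWAT called 0 members (percent called 0.0132%) with edgeR, DESeq2 and limma voom alike, and the median was 0.30. An unadjusted p under 0.05 was found for 7 members and for 784 of all 15187 genes.

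**Figure D5:**
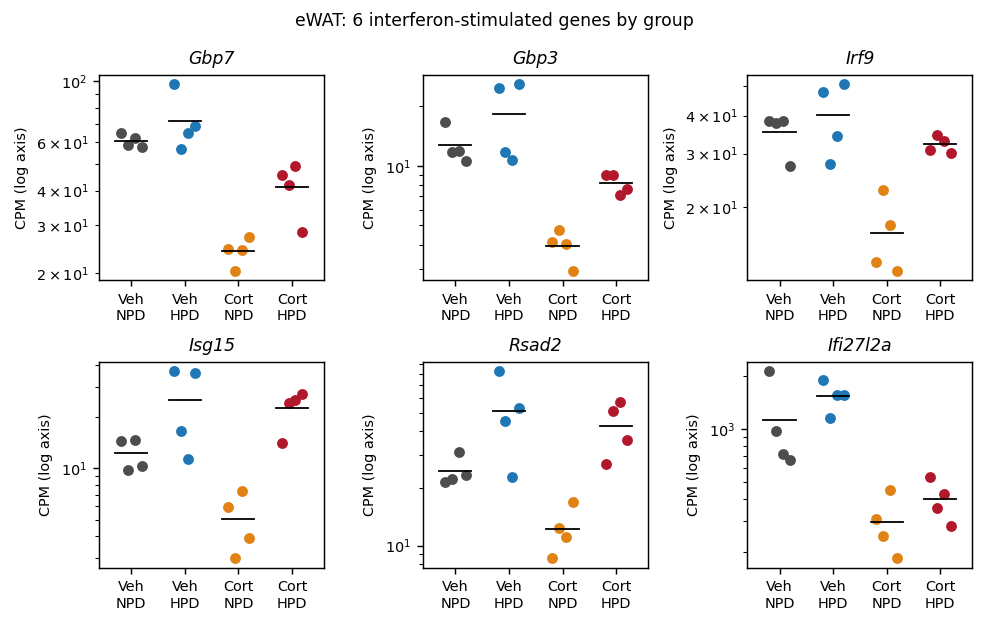
CPM of 6 interferon-stimulated genes in each eWAT library (points, log axis) by group, with the group mean as a line. Cort NPD holds the lowest mean in all 6 panels, and Ifi27l2a is low in both cort groups.

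In eWAT of mice on cort, 5 members were higher on the HPD and 0 were lower (percent called 0.487%, 0.204% in the higher direction). Isg15 had the smallest p: the Cort HPD libraries were at 14.1, 23.9, 25.0 and 27.2 CPM, above all 4 Cort NPD libraries (2.15 ± 0.36, adjusted p = 0.0046). Rsad2 was at 8.56, 12.4, 11.1 and 17.0 CPM in Cort NPD and at 27.0, 50.8, 57.1 and 36.0 CPM in Cort HPD (1.80 ± 0.34, adjusted p = 0.027). Irf9 was at 30.9, 34.6, 33.1 and 30.1 CPM in Cort HPD (0.97 ± 0.20, adjusted p = 0.019), and Gbp7 and Ifitm3 rose by 0.78 ± 0.17 and 0.57 ± 0.13. None of the 5 had overlapping groups. The median over 44 members was 0.75, and 24 members had an unadjusted p under 0.05, as did 1490 of all 15187 genes. In 18 members every Cort HPD library was above every Cort NPD library, where 3.02% of all genes had this. All 5 genes (100% of those called in eWAT) were also among the 39 that rose in liver, of which they are 12.8%. Leaving out any 1 of the 8 cort libraries left 1 to 3 members called (1 without Cort NPD replicate 1 or Cort HPD replicate 3). DESeq2 called 12 members among 195 genes in all, and limma voom 2 among 69. Without eWAT Cort HPD replicate 4, the library with epididymis transcripts, 3 were called.

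In veh-treated eWAT, 0 members were called for the diet (percent called 0.0593%). An unadjusted p under 0.05 was found for 13 members and for 1219 of all 15187 genes. DESeq2 called 3 members among 126 genes in all, and limma voom 0 among 19. Without Veh HPD replicate 3, edgeR called 4 members (1 without replicate 2). The median log2 fold change was 0.44. As in liver, the 4 Veh HPD libraries were unequal: the median over the members was 0.81 in replicate 1 and 0.59 in replicate 4, and -0.08 and -0.11 in replicates 2 and 3. Replicate 1 was the highest of the 4 for 26 members and replicate 4 for 17 of 44. Ifit3 was at 52.5, 19.6, 28.9 and 73.8 CPM in the 4 Veh HPD libraries and at 16.9, 16.5, 18.8 and 10.6 CPM in Veh NPD. Irf7 was at 42.8, 20.2, 15.9 and 46.6 CPM, against 6.73, 15.2, 14.9 and 9.58 CPM. The replicate numbers with high values, 1 and 4, were the same in both tissues.

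The tissues were compared in 1 fit of 31 libraries. On the HPD, the cort effect was higher in liver than in eWAT for 7 members and lower for 0 (percent called 3.12%, 1.11% in the higher direction): Ifit3 (2.72 ± 0.61, adjusted p = 0.012), Oas1c (4.64 ± 1.04, adjusted p = 0.0076), Dhx58 (2.07 ± 0.49, adjusted p = 0.012), Ifi27l2a (2.59 ± 0.60, adjusted p = 0.015), Ifih1, Usp18 and Parp9. The median over 45 members was 1.20, and -0.08 over all genes. Without liver Veh HPD replicate 1, 2 or 3 the count was 26, 2 and 3, and without eWAT Veh HPD replicate 2 it was 14. On the NPD, 1 member was called (percent called 3.85%): Irf9, by 0.89 ± 0.27 (adjusted p = 0.050, under the threshold before rounding), which 25 of the 31 fits with 1 library left out no longer called. The median was 0.29. The TMM factors of this joint fit ran from 0.518 to 1.52.

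Of the rest of the interferon pathway, the ligands were at or near 0 counts. Of 12 interferon genes listed, 8 had 0 counts in all 32 libraries, and none passed the filter. Ifnb1, interferon-beta, had 5 counts, all in liver Cort HPD replicate 1, the library with the highest interferon-stimulated genes. Ifng, interferon-gamma, had 15 counts in 4 Veh NPD libraries. A count of 0 allows up to 3 counts in a library, and interferon transcripts below that were not detectable at this depth. Of the 5 receptor genes tested, 0 passed in any liver comparison, and in eWAT Il10rb, a subunit of the interferon-lambda receptor, rose with cort on the HPD (0.58 ± 0.14, adjusted p = 0.012). Of 6 inhibitors, Cish, a feedback inhibitor of cytokine receptors, fell with cort on the HPD in eWAT (-1.96 ± 0.51, adjusted p = 0.025).

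Of the genes that sense nucleic acid upstream of interferon, 13 were tested in each tissue. Irf8, a transcription factor of myeloid cells, fell with cort in all 4 cort comparisons, most in liver on the HPD (-1.73 ± 0.23, adjusted p = 5.7e-05). Tlr7 (-1.57 ± 0.37, adjusted p = 0.0074) and Irf5 (-1.21 ± 0.30, adjusted p = 0.010) fell in liver on the NPD, and Tmem173, the sensor adaptor STING, in eWAT on the NPD (-1.05 ± 0.30, adjusted p = 0.024). Mavs, the adaptor of the RNA sensors, rose there (0.56 ± 0.16) and fell in liver on the HPD (-0.61 ± 0.17), where Ticam1 also fell (-0.90 ± 0.22) and Tlr3, an endosomal RNA receptor, rose (0.95 ± 0.26). The 1 sensing gene that passed for diet was Tbk1, the kinase that activates Irf3, in liver under cort (0.63 ± 0.19, adjusted p = 0.048).

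A further 32 interferon targets that are not among the 45 were counted in the same way. They were also chosen with earlier results of these data known, and their values come from the same libraries. They are thus not independent support for the members. In liver under cort, 15 of 27 tested were higher on the HPD and 0 were lower, with a median of 1.40, where 3.08% of all genes were higher. Ube2l6, the conjugating enzyme of Isg15, rose by 1.40 ± 0.23 (adjusted p = 0.00082), Phf11d by 2.81 ± 0.48 (adjusted p = 0.0013) and Herc6, a ligase of Isg15, by 1.98 ± 0.32 (adjusted p = 0.0016). In eWAT under cort, Ifi203, Ube2l6 and Phf11d rose with the HPD (3 of 28, where 0.204% of all genes were higher). With cort on the NPD, 13 of 28 were lower in eWAT (median -1.14), where 3.93% of all genes were lower. They were led by the chemokine Cxcl9 (-2.60 ± 0.26, edgeR adjusted p = 1.9e-06), Lgals3bp (-1.21 ± 0.16) and Ifi203 (-1.67 ± 0.21). In liver 7 of 27 were lower (median -0.75), where 5.79% of all genes were lower. These were led by Cxcl9 (-3.40 ± 0.43), Ifi204 (-1.64 ± 0.31) and Gbp8 (-3.51 ± 0.69). With cort on the HPD, 6 of 28 were lower in eWAT, where 2.63% of all genes were lower. In liver on the HPD only 1 of 27 was lower (Ifi203, -0.80 ± 0.26) and 0 were higher, with a median of 0.31. Of all genes there, 9.89% passed in either direction.

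Transcripts of several cell types moved with the same comparisons, and their part in the results was not tested. In liver the 12 macrophage markers summed to 376 to 505 CPM in Veh NPD and to 173 to 281 CPM in Cort NPD, with 8 lower on the NPD, and the 12 T and NK cell markers to 8.48 to 12.3 CPM and to 0.431 to 2.85 CPM. For the diet under cort in liver, macrophage markers stood at 373, 198, 219 and 214 CPM in Cort HPD replicates 1 to 4, with 1 higher and 1 lower. T and NK cell markers stood at 0.930 to 2.22 CPM in Cort HPD. Markers of plasmacytoid dendritic cells, which can make much interferon, stood at 0.339 CPM or less in Cort HPD, with Ccr9 at 0 in both groups. In Cort NPD they stood at 0.122 to 45.0 CPM, where the highest sum was that of 1 library and came from Cox6a2. Red blood cell markers summed to more in Cort HPD than in Cort NPD in both tissues. The sums were 5270 to 7620 against 1360 to 3540 CPM in liver and 12700 to 25900 against 3620 to 6490 CPM in eWAT. Of the 6 markers, 3 were called higher and 1 lower in liver, and 5 higher and 0 lower in eWAT. Hepatocyte markers in liver stood at 136000 to 243000 CPM in Cort HPD, the highest in replicate 1, against 95800 to 117000 CPM in Cort NPD, with 2 of 8 higher and 0 lower. Endothelial markers there stood at 37.4 to 53.3 against 59.3 to 107 CPM, with 0 of 6 higher and 3 lower. In eWAT the macrophage sum was between 1170 and 1720 CPM in every library. The T and NK cell markers there summed to 10.3 to 24.5 CPM in Veh NPD and to 3.6 to 6.68 CPM in Cort NPD, with Ncr1 at 0 in Cort NPD. In the HPD groups they summed to 9.77 to 23.6 CPM with veh and to 6.21, 6.53, 3.26 and 99.0 CPM with cort. The 99.0 CPM was in replicate 4, the library with epididymis transcripts. The plasmacytoid dendritic cell markers in eWAT summed to 4.30 to 7.23 CPM in Veh NPD and 4.77 to 6.28 CPM in Veh HPD. In Cort NPD they summed to at most 2.94 CPM, with Cox6a2, Klk1 and Pacsin1 at 0. In Cort HPD they summed to 2.02, 2.42, 1.20 and 7.53 CPM, the highest again in replicate 4. Both sums were thus lower in every Cort NPD library than in every Veh NPD library, in the comparison in which 13 members fell. Of 10 glucocorticoid receptor targets taken as a check of the treatment, 4 rose with cort on the NPD in eWAT and 1 in liver, and 0 fell. Fkbp5 rose in both tissues on the NPD (1.74 ± 0.39 in eWAT and 2.23 ± 0.48 in liver). On the HPD 2 rose and 2 fell in eWAT and 0 rose and 3 fell in liver.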

How the data were processed

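Raw counts of QuantSeq 3′ mRNA libraries were deposited by the authors with 1 row for each Ensembl gene ID and a separate column for every replicate. The submitters' processing notes name GRCm38 (mm10), R 4.0.3 and limma; the aligner, the counting program and its strand setting are not given in the sources used here. Groups came from the sample labels. Symbols and positions came from GENCODE vM21 (GRCm38), which named 47224 of 47643 IDs. The 45 members and every gene list were chosen with earlier results of these data known.

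Counts were fitted in R 4.3.3 with edgeR 4.0.16, 1 fit per tissue with 1 mean per group (eWAT 16 libraries and 15187 genes, liver 15 libraries and 12391 genes) and 1 joint fit of 31 libraries and 16482 genes for the tissue difference. Genes were kept by filterByExpr (minimum count 10, minimum total 15), scaled with TMM factors and tested with the robust quasi-likelihood test. Benjamini-Hochberg adjusted p-values cover all genes tested, and under 0.05 was called, the threshold of the study. SEs are the log2 fold change divided by the square root of F. The CPM of the library left out used TMM factors from all 16 liver libraries. The fits were tested on simulated data. Alternatives were RLE factors, library totals, DESeq2 1.42.0, limma voom (limma 3.58.1), no filter, a replicate block, all liver libraries and leaving out each library.

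Members given library by library are, for each comparison of 2 groups, those called, up to 8 per direction with the smallest p, those called in an interaction or tissue difference, and Irf1, Irf7, Irf9 and Stat2. Ifit1 and Oas1g, given library by library, and the other members named to fill out a count or a range were chosen after their values were seen. Total counts per library ran from 8933307 to 18057936; p-values rest on the spread between the libraries of a group. The kinase and Stat genes of the pathway outside the 45 are not reported here.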

Additional observations from a re-analysis of the deposited data

Results flagged for a closer look

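Single libraries stood far from the other 3 of their group in 18 of 203 tests on 28 named members and on the median over the members, where chance gives about 1 in 20. Liver Cort HPD replicate 1 was the highest of its group in 7 of these: Isg15 at 414 CPM against 133 to 142 CPM, Ifi27 at 481 CPM, Gbp3 at 30.9 CPM, Ifi27l2a at 34.1 CPM, Gbp2 at 7.46 CPM, Tnfsf10 at 11.4 CPM and Ifih1 at 38.9 CPM. It was the highest of the 4 for 34 of 44 members (77.3%, against 34.1% of all genes). Its TMM factor of 0.754 was the lowest of the liver fit, which raised all its CPM. The factors of Cort HPD replicates 2, 3 and 4 were 0.986, 0.911 and 0.98. Ifih1 had 459 counts in replicate 1 and 501, 378 and 388 counts in replicates 2, 3 and 4, so its flag depended on this scaling. The same scaling entered the other flags of this library, which were not recomputed without it. Tnfsf10, for example, had 134 counts in replicate 1 and 117, 93 and 97 counts in replicates 2, 3 and 4. Other high values were Ifi27 at 811 CPM in eWAT Veh HPD replicate 4, Gbp3 at 7.54 CPM in liver Veh NPD replicate 2, Isg15 at 24.4 CPM and Apol9a at 20.9 CPM in liver Cort NPD replicate 2, Tnfsf10 at 3.29 CPM in liver Veh NPD replicate 3, Oas1c at 1.79 CPM in eWAT Cort HPD replicate 2, Usp18 at 3.99 CPM in eWAT Cort HPD replicate 4 and Mx1 at 0.231 CPM (3 counts) in liver Cort NPD replicate 1. Low values were all in eWAT Veh NPD replicate 4: Irf9 at 27.2 CPM, Oasl1 at 0.896 CPM and the median over the members at -0.26 on the log2 scale.

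Effects that differed between groups, by a test of the difference on the log2 scale, were those of diet on the cort effect in liver for Oas1c (3.15), Tnfsf10 (1.99) and Apol9b (1.65), and those of tissue on the cort effect for Irf9 on the NPD (0.89) and for Oas1c (4.64), Ifit3 (2.72), Ifi27l2a (2.59), Usp18 (2.08), Dhx58 (2.07), Ifih1 (1.21) and Parp9 (1.09) on the HPD. The library that entered no comparison, liver Veh HPD replicate 4, had a median over the members of 1.17 (log2) above the Veh NPD mean, was above every Veh NPD liver for 39 of 45 members and above every Cort HPD liver for 7.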

How the results depend on the processing

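For diet in liver under cort, 37 to 40 members were called in the alternatives that kept every library and 36 to 39 with 1 library left out. Scaling to library totals moved the median of all genes there to -0.18 and that of the members to 2.07, and in liver Cort against Veh on the HPD to -0.24 and 0.37. Of 1709 refits of 71 called member values, 1504 stayed called in the same direction, 205 lost the call and 0 reversed. Many of these refits left out a library outside the groups compared, which tests a call only weakly. DESeq2 moved the count of called members to 3 (eWAT diet under veh), 12 (eWAT diet under cort), 12 (liver cort on the NPD), 15 (liver cort on the HPD), 3 (liver diet under veh), 11 (liver interaction) and 19 (tissue difference on the HPD). Over all genes DESeq2 called 126, 195, 1889, 1534, 113, 130 and 842 there, where the main fits called 9, 74, 1565, 1226, 21, 14 and 514. Limma voom moved the count of called members to 2 (eWAT diet under cort), 16 (liver cort on the HPD), 1 (liver interaction) and 0 (tissue difference on the NPD). Over all genes limma voom called 69, 1238, 7 and 423 there. With no filter the count of called members was 1 (liver diet under veh, 56 genes in all), 5 (liver interaction, 72 genes in all) and 0 (tissue difference on the NPD), with library totals 1 (eWAT diet under veh) and 0 (tissue difference on the NPD), which RLE factors also gave. With all liver libraries it was 4 (liver cort on the NPD), 0 (liver interaction) and 0 (tissue difference on the NPD). The cause of these changes was not tested.

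With 1 library left out, the counts ran from 10 to 17 and from 3 to 7 for cort in eWAT on the NPD and HPD, 0 to 4 and 1 to 7 for diet in eWAT under veh and cort, 0 to 0 for the eWAT interaction, 3 to 10 and 3 to 22 for cort in liver, 0 to 3 for diet in liver under veh, 0 to 12 for the liver interaction, and 0 to 2 and 2 to 26 for the tissue differences on the NPD and HPD. The counts of 12 and 26 were those without liver Veh HPD replicate 1. Without the eWAT libraries with B cell or epididymis transcripts, an alternative chosen after seeing the data, 11, 4 and 4 members were called for cort on the NPD, cort on the HPD and diet under cort. The replicate numbers were not taken to pair the libraries, since the correlations of same-numbered deviations were -0.12 to 0.25 in eWAT, -0.13 to 0.16 in liver and -0.04 to 0.20 across tissues, not all over 0.1. Across tissues their median was 0.06 (4 of 15 over 0.1), against -0.03 for different numbers (2 of 45). With the number as a replicate block the count was 3 and 14 for the tissue differences on the NPD and HPD, and 40 for the liver diet difference under cort. Under the block Oas1c was not called in the tissue difference on the HPD (edgeR, 4.40, adjusted p = 0.052). Members with few counts, such as Mx1 in liver with 6 counts over the Cort NPD group, limit what this depth shows.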
